A study of Mus musculus with 4 samples.

Results

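Cells that met a rule for non-mature conventional dendritic cells (cDCs) made up 90 of the 26525 barcodes that passed quality filters. The barcodes came from spinal cords (SCs) of mice with experimental autoimmune encephalomyelitis (EAE). The cells were chosen by their transcripts alone. A barcode counted as such a cell when it held at least 2000 unique molecular identifiers (UMIs, each marking 1 captured transcript) of which under 10% were mitochondrial, at least 3 UMIs of *Flt3*, *Zbtb46*, *Xcr1*, *Clec9a*, and *Cd209a* together, and at least 15 of the class II genes *H2-Aa*, *H2-Ab1*, and *H2-Eb1*. It could hold no more than 3 UMIs of the maturation genes *Fscn1*, *Ccr7*, and *Cacnb3*, 6 of *C1qa*, *C1qb*, and *C1qc*, 1 of *Cd3e*, *Cd3d*, *Cd3g*, and *Lat*, and 2 of the endothelial genes *Cldn5*, *Cdh5*, *Egfl7*, and *Esam*. These 22 genes chose the cells, so their levels are given as a description and entered no test.

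Each of 4 conditions had 1 droplet library of CD45+ immune cells and CD31+ endothelial cells (ECs), sorted in equal numbers from SCs, and every mouse had EAE induced with a myelin oligodendrocyte glycoprotein peptide in complete Freund's adjuvant and pertussis toxin, the latter at a lower dose in the overexpression pair. In the blockade pair, wild-type C57Bl/6JOlaHsd mice aged 15 weeks received mouse IgG1 (mIgG1) or an angiopoietin-2 (Ang2) blocking antibody (Ang2 Ab) from induction and were sampled at 14 days post immunization (dpi). In the overexpression pair, C57Bl/6JCrl mice aged 12 to 14 weeks were single-transgenic littermates (Ctrl) or carried *VE-cadherin-tTA* and *Tet-OS-Ang2* (*EC-Ang2*), which drives Ang2 in ECs once doxycycline is withdrawn at birth, and were sampled at 12 dpi. The sources used here do not say how many mice entered a library, no unimmunized mice were part of the comparison, and each condition had a single library, which leaves its differences from the others without a test. Values are given in the order mIgG1, Ang2 Ab, Ctrl, and *EC-Ang2* throughout. The libraries held 66631583, 57954609, 52084739, and 52796061 UMIs in all droplets.

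cDCs take up antigen, load its peptides onto MHC molecules, and present them to T cells. The cDC1 lineage, which carries the chemokine receptor XCR1 and the dead-cell receptor CLEC9A and depends on IRF8 and BATF3, is known for presenting material from other cells to CD8 T cells, whereas cDC2 present mainly to CD4 T cells. On maturation, cDCs gain the lymph node–homing receptor CCR7 and the actin-bundling protein fascin, and in EAE they are among the cells that can present myelin antigen to infiltrating T cells.

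The sum of the 5 lineage genes removed most barcodes. Of 6995, 7488, 6627, and 5415 barcodes, 69, 72, 57, and 25 held 3 or more such UMIs, and the remaining criteria left 31, 30, 21, and 8 cells. The threshold of 3 UMIs cut through a continuum, with 25 cells exactly at 3 and a further 56 that met all else but held 2. The class II threshold had 1 cell just inside it (15 to 29 UMIs) and 14 outside. At the C1q limit, 15 cells held 4 to 6 UMIs and 18 more held 7 or more, and 23 cells met all else but held 4 or more UMIs of the maturation genes. Pairs of libraries shared 51 to 77 barcode sequences among all their cells, but 0 between their chosen cells. In the pair of mIgG1 and *EC-Ang2*, 1 barcode of a chosen cell was also that of a cell in the other library. None of the chosen cells was among the barcodes marked as doublets by Scrublet score.

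The rule itself set the level of the lineage genes, which are described first. *Flt3*, the receptor for the cytokine that maintains cDCs, gave 51, 27, 26, and 10 UMIs and was present in 61.1% of the cells. *Zbtb46*, a transcription factor of the cDC lineage, gave only 2, 9, 3, and 5 UMIs and was present in 15.6%, against 10.5% of ECs, which also express it. Of the cDC genes that the rule did not use, *Kmo*, an enzyme of tryptophan breakdown, was present in 47.8% of the cells against 4.66% of monocytes, and in 18.9% against 2.25% when each cell was thinned to 2000 UMIs. Markers of other cells served to check the label. Transcripts of the listed B, T, and NK cell genes were nearly lacking. The B cell genes gave 9 UMIs in all 90 cells, with *Cd79a* at 0, and the T and NK cell genes gave 26, of which *Cd8a*, also made by some cDC1, had 18. The microglia genes gave 67, 51, 65, and 23 UMIs, with *Sall1* at 0. The macrophage genes stood at 1360.2, 931, 397, and 264 CPM, with *Apoe* the most abundant over all 90 cells, and the EC genes gave 47, 44, 57, and 8 UMIs. The monocyte genes were present at 3672, 6745, 9389, and 7788 CPM (UMIs summed over the cells of a library, per 1000000 UMIs of those cells), with *Plac8* the most abundant and *Vcan* at 0 in all 4 libraries. RNA from broken cells, estimated from 4 EC genes outside the rule (*Flt1*, *Ptprb*, *Slco1a4*, and *Kdr*) in the cells and in empty droplets, made up 3.20%, 4.59%, 1.19%, and 6.86% of UMIs. The limit that the rule set on other EC genes can lower this estimate.

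Plasmacytoid dendritic cell genes went against the label in a few cells. UMIs of 2 or more of *Siglech*, *Ly6d*, and *Cox6a2* were found in 5 of the 90 cells, 3 from mIgG1 and 2 from Ctrl. These were kept, because they met the rule, and results that rest on them are named.

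The cells were rare in every library and rarest in *EC-Ang2*. They made up 1.42% of 2181 mIgG1 immune cells (exact binomial 95% interval 0.968% to 2.01%), 1.37% of 2189 Ang2 Ab immune cells (0.927% to 1.95%), and 1.17% of 1792 Ctrl immune cells (0.727% to 1.79%). In *EC-Ang2* the share was 0.426% of 1877 cells (0.184% to 0.838%). The *EC-Ang2* and Ctrl intervals overlapped, and intervals here and below cover counting error only. Mature dendritic cells, defined by the same limits but with at least 4 UMIs of *Fscn1*, *Ccr7*, and *Cacnb3* and no lineage gene required, numbered 43, 69, 32, and 41, above the non-mature cells in each library. With a lineage-gene sum of at least 2, the non-mature cells numbered 48, 51, 28, and 19, which in mIgG1 is above the mature cells. The non-mature cells were deeply covered, with median UMIs of 8695, 8079.5, 8114, and 9853.5.

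**Figure D1:**
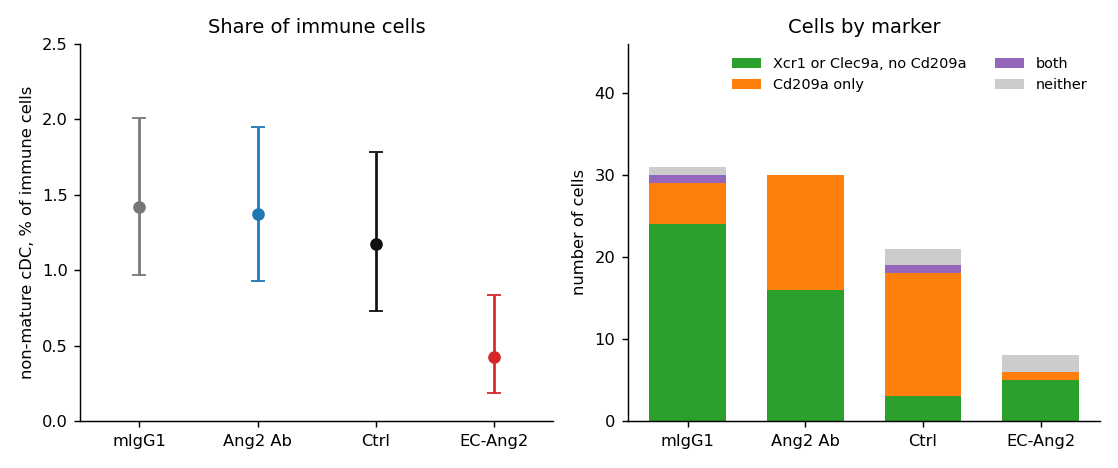
Left, non-mature cDCs as a percentage of immune cells in each library, with exact binomial 95% intervals as bars. Right, number of these cells by marker in each library (31, 30, 21, and 8 cells). The *EC-Ang2* share is the lowest, and cells with *Xcr1* or *Clec9a* are the majority in mIgG1, whereas those with *Cd209a* are the majority in Ctrl.

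*Xcr1* (chr9:123852315-123862029, minus strand, GRCm38) and *Clec9a* (chr6:129408862-129424763, plus strand) marked cDC1-like cells, and *Cd209a* (chr8:3743397-3748984, minus strand), a C-type lectin of the DC-SIGN family, marked the rest. The markers hardly met in 1 cell. Of the 90 cells, 48 held *Xcr1* or *Clec9a* without *Cd209a*, 35 held *Cd209a* alone, 2 held both, and 5 held neither. Some *Cd209a* cells met the lineage sum on *Cd209a* UMIs alone, such as 1 Ang2 Ab cell with 27 of 27. Such cells held no *Flt3* or *Zbtb46* UMI. Of the 2 cells with both markers, the 1 from mIgG1 had plasmacytoid genes. *Xcr1* gave 66, 45, 16, and 12 UMIs, *Clec9a* 30, 24, 5, and 9, and *Cd209a* 36, 148, 160, and 5. As background for such detection, *Xcr1* was present in 0.287% of T cells and 0.0950% of ECs and *Cd209a* in 0.573% and 0.0950%, with no library's T cells or ECs over a median of 6295 UMIs.

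The 2 kinds of cell were unevenly divided among libraries. Cells with *Xcr1* or *Clec9a* were 80.6% of the mIgG1 cells (25 of 31, exact binomial interval 62.5% to 92.5%) and 53.3% of the Ang2 Ab cells (16 of 30, 34.3% to 71.7%). They were 19% of the Ctrl cells (4 of 21, 5.45% to 41.9%) and 62.5% of the *EC-Ang2* cells (5 of 8, 24.5% to 91.5%). The 25 mIgG1 cells include the 3 with plasmacytoid genes, which held 38, 41, and 36 UMIs of the 3 class II genes of the rule. The 4 libraries differ in more than treatment, because the pairs came from different substrains, ages, and dpi and differed in the dose of pertussis toxin. The interval of Ctrl did not overlap that of mIgG1 but did overlap those of Ang2 Ab and *EC-Ang2*. The cDC1-like cells were also the deeper ones, with median UMIs of 9322.5, 11089.5, 12789, and 11527 against 5101, 5546.5, 7918, and 8027 in *Cd209a* cells. When each barcode was thinned to 2000 UMIs before the rule was applied, 6, 11, 5, and 1 cells were left, and the share with *Xcr1* or *Clec9a* was 50%, 27.3%, 0%, and 0%, so that the shares changed with depth.

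**Figure D2:**
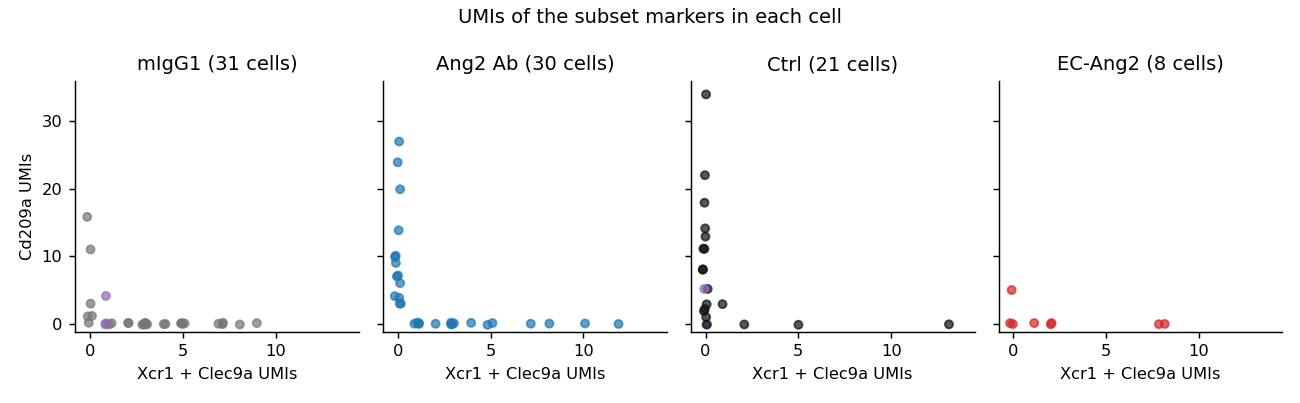
UMIs of *Cd209a* (vertical axis) against UMIs of *Xcr1* and *Clec9a* together (horizontal axis) in each non-mature cDC, 1 panel per library, with points moved slightly to show overlaps. Purple points are the cells with UMIs of 2 or more of *Siglech*, *Ly6d*, and *Cox6a2*. Cells lie along 1 axis or the other, with 2 exceptions among 90, 1 in mIgG1 and 1 in Ctrl.

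Some of the cells held several cell cycle transcripts at once. UMIs of 3 or more of 12 cell cycle genes were present in 6 of the 90 cells, 4 in mIgG1 and 2 in Ang2 Ab, with 0 of 21 in Ctrl and 0 of 8 in *EC-Ang2*. Of these, 5 were among the 48 cDC1-like cells (10.4%, exact binomial interval 3.47% to 22.7%), and 0 of 35 *Cd209a* cells had them (upper bound 10%), the latter being the shallower cells. The share was 0 of 185 mature dendritic cells (upper bound 1.97%) and 8 of 2982 monocytes (0.268%, 0.116% to 0.528%). These cells were shallower as well, with median UMIs of 6279 and 6300.5 against 9975.5 in cDC1-like cells. Thinned to 2000 UMIs, a comparison added after seeing the data, 3 of 48 cDC1-like cells (6.25%, 1.31% to 17.2%), 0 of 185 mature cells, and 1 of 2982 monocytes (0.0335%, 0.00085% to 0.187%) held 3 or more of the genes. The cell cycle genes together reached 494, 253, 21.5, and 0 CPM, with *Birc5*, which acts in chromosome segregation and cell division, the most abundant over all members.

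The genes that distinguish cDC1-like from *Cd209a* cells were examined next, with UMIs summed per library and subset, so that each library gave 1 sum of each kind and the library entered the fit as a block. Among 1325 genes tested outside the rule, 70 (5.28%) were higher and 116 (8.75%) lower in cDC1-like cells at an adjusted p under 0.05 (edgeR quasi-likelihood test, Benjamini-Hochberg adjustment), with a median log2 fold change of −0.0017 over all tested genes. The division by *Xcr1*, *Clec9a*, and *Cd209a* extended to genes that the rule had not used. Of 12 cDC1 genes, 7 had enough counts to be tested and all 7 were higher, with a median log2 fold change of 2.98. Of 11 cDC2 genes measured, 5 were tested and 4 were lower, with a median of −4.73. Sums rested on 24, 16, 3, and 5 cDC1-like cells and on 5, 14, 15, and 1 *Cd209a* cells, so that the *EC-Ang2* value for *Cd209a* cells is that of 1 cell. The mIgG1 cDC1-like sum and the Ctrl *Cd209a* sum include cells with plasmacytoid genes (*Ly6d* at 184 and 220 CPM).

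*Naaa*, which encodes a lysosomal lipid hydrolase (chr5:92257659-92278170, minus strand), stood at 1422, 1246, 1397, and 1277 CPM in cDC1-like cells and at 147, 318, 171, and 125 CPM in *Cd209a* cells. Every cDC1-like sum was higher than every *Cd209a* sum, with a log2 fold change of 2.75 ± 0.29 (SE; edgeR adjusted p = 8.22e-05). *Ppt1*, a lysosomal thioesterase, stood at 874, 851, 738, and 1277 CPM against 73.3, 48.9, 81.5, and 374 CPM and also did not overlap (3.38 ± 0.35, edgeR adjusted p = 7.64e-05). *Irf8*, the transcription factor on which cDC1 depend, was present in both subsets but higher in cDC1-like cells, at 981, 1400.0, 2004, and 1133 CPM against 257, 416, 212, and 498 CPM (2.3 ± 0.31, edgeR adjusted p = 0.000651). *Batf3*, its partner in cDC1 development, was at 171, 177, 211, and 126 CPM against 0, 36.7, 16.3, and 0 CPM (3.17 ± 0.64, edgeR adjusted p = 0.00727). *Itgae*, the CD103 integrin chain, gave 164 UMIs in cDC1-like cells and 3 in *Cd209a* cells, a pooled ratio of 26.1-fold (95% interval 8.78 to 128). The latter 3 were all from Ctrl, where the difference was smaller, at 132 against 24.5 CPM. *Wdfy4*, required for cross-presentation by cDC1, and *Cd24a*, a surface marker of cDC1, were higher by 2.94 ± 0.57 and 2.98 ± 0.48 on the log2 scale (edgeR adjusted p = 0.00621 and 0.00228). *Cst3*, the cystatin C gene that is abundant in cDCs, was at 31214, 30422, 37018, and 29704 CPM against 4546, 3265, 6938, and 1121 CPM (3.18 ± 0.28, edgeR adjusted p = 2.65e-05). All 4 *Cd209a* sums lay below all 4 cDC1-like sums. *Id2*, an inhibitor of E proteins that is needed for cDC1, was higher as well (3.35 ± 0.38, edgeR adjusted p = 0.000158).

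Outside the lists, *Plet1*, a surface protein gene (chr9:50494525-50505482, plus strand), stood at 1375, 1566, 976, and 342 CPM in cDC1-like cells against 0, 0, 24.5, and 0 CPM. It gave 651 against 3 UMIs, a pooled ratio of 104-fold (95% interval 35.3 to 504). *Btla*, an inhibitory receptor of lymphocytes and dendritic cells, gave 74 UMIs in cDC1-like cells and 0 in *Cd209a* cells, which is at least 11.8-fold higher when 0 is set at a floor of 3 counts over the group. The serpin gene *Serpinb6b* gave 57 against 0 UMIs (at least 9.07-fold higher) and the small GTPase gene *Rab7b* 93 against 1, a pooled ratio of 44.4-fold (95% interval 7.78 to 1773). All 4 genes were higher in every library, with edgeR adjusted p of 2.28e-05 for *Plet1*, 0.0058 for *Btla*, 0.00823 for *Serpinb6b*, and 0.00119 for *Rab7b*.

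The genes higher in *Cd209a* cells included cDC2 genes and monocyte genes. *Clec10a*, a C-type lectin of cDC2 and macrophages (chr11:70156197-70170834, plus strand), was at 697, 868, 334, and 125 CPM in *Cd209a* cells and at 8.57, 5.71, 0, and 0 CPM in cDC1-like cells, a pooled ratio of 92.1-fold (95% interval 30.8 to 453). *Tmem176b*, an ion channel gene of immature dendritic cells, was at 953, 404, 408, and 997 CPM against 30.0, 22.9, 0, and 18 CPM, and *S100a4*, a calcium-binding protein gene, at 623, 709, 1043, and 1370.4 CPM against 4.28, 5.71, 0, and 144 CPM. Neither gene overlapped between the subsets (edgeR adjusted p = 2.65e-05 and 0.000158). *Cd7*, a lymphoid surface receptor gene, was higher in *Cd209a* cells of all 4 libraries (113 against 3 UMIs, edgeR adjusted p = 2.45e-05), and the call held under the 10 alternatives that kept the gene in the test.

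The *Cd209a* cells also held more monocyte transcripts. Of 10 monocyte genes, 7 were tested, 5 were higher in *Cd209a* cells and none was higher in cDC1-like cells (median log2 fold change −2.07). *Lyz2*, the lysozyme gene of myeloid cells, was at 2346, 5516, 1989, and 16943 CPM against 788, 1074, 369, and 216 CPM (−2.79 ± 0.51, edgeR adjusted p = 0.00438), the highest value being that of the single *EC-Ang2* cell. *Ccr2*, the receptor through which monocytes leave the bone marrow, was at 513, 245, 351, and 249 CPM against 51.4, 114, 52.7, and 53.9 CPM (edgeR adjusted p = 0.0119). The other 3 were *Cd14*, the endotoxin coreceptor, *Ms4a4c*, and *Plac8*. The call was lost for *Ccr2* without mIgG1 (edgeR adjusted p = 0.0863), for *Cd14* in thinned cells (0.0736), and for *Plac8* when genes were not filtered on low counts (0.70). *Csf1r*, the receptor that maintains monocytes and macrophages, and the myeloid transcription factor *Cebpb* were higher in *Cd209a* cells too, the latter not without the filter (edgeR adjusted p = 0.0121 and 0.00691). *Vcan* was at 0 in all members. Whether monocytes among the *Cd209a* cells account for any of these differences was not tested.

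**Figure D3:**
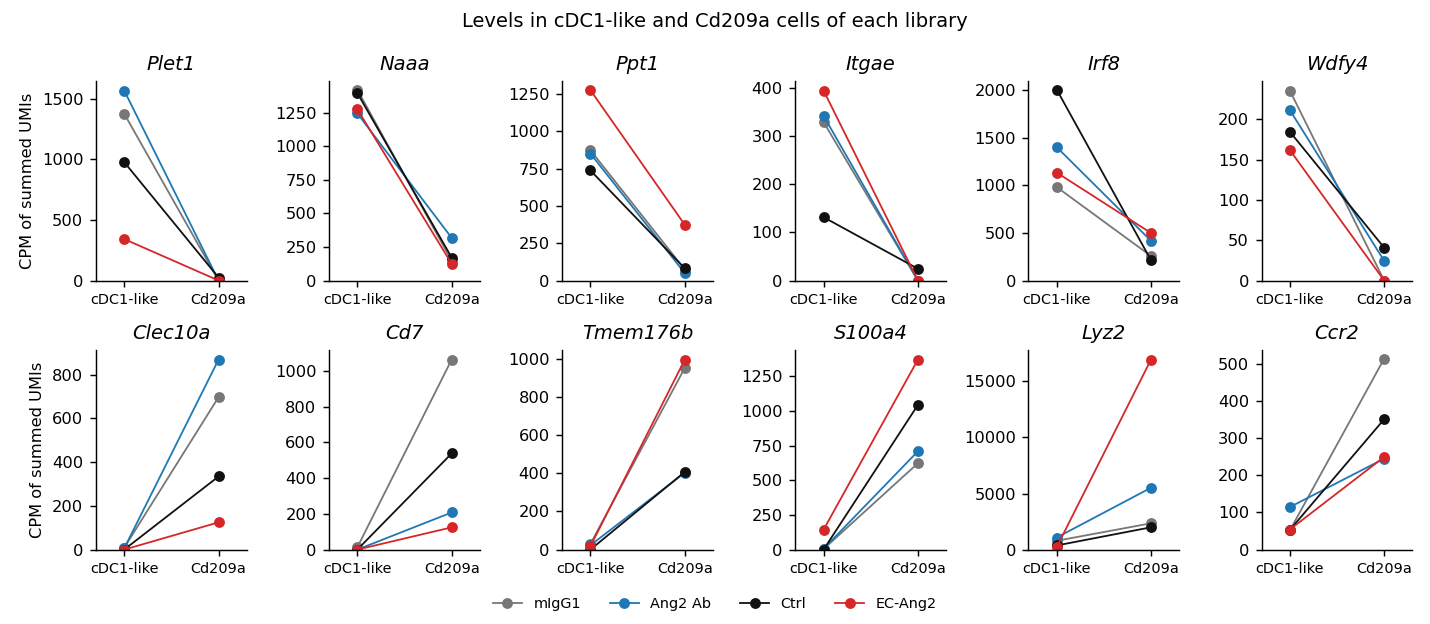
Level of 12 genes in CPM (vertical axes, linear from 0) in cDC1-like and *Cd209a* cells, with 1 line per library. The upper 6 genes are higher in cDC1-like cells of all 4 libraries and the lower 6 are higher in *Cd209a* cells of all 4. The *EC-Ang2* point for *Cd209a* is 1 cell.

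Antigen presentation genes were examined next. Of 10 class II pathway genes, 8 were tested, none was higher in cDC1-like cells and only *Ctss*, the cathepsin that trims the invariant chain, was lower, at 1383, 1011, 976, and 989 CPM against 2713, 2617, 2894, and 2616 CPM (edgeR adjusted p = 0.000902). *Cd74*, the invariant chain itself, was abundant in both, at 41429.5, 35645, 40419, and 37885 CPM and 36478, 37962, 38014, and 25165 CPM (log2 fold change 0.31 ± 0.15, edgeR adjusted p = 0.226). Of 15 class I and cross-presentation genes, 13 were tested and 3 were higher in cDC1-like cells. These were the immunoproteasome subunit genes *Psmb8* (1.09 ± 0.22, edgeR adjusted p = 0.007) and *Psmb9* (1.31 ± 0.35, edgeR adjusted p = 0.0276) and the peptide transporter gene *Tap2* (1.57 ± 0.34, edgeR adjusted p = 0.0119). The call held under 11 of 12 alternatives for *Psmb8*, 7 of 12 for *Psmb9*, and 8 of 11 for *Tap2*. Those of *Psmb9* and *Tap2* were lost without mIgG1 and without Ang2 Ab, that of *Psmb9* also without Ctrl, and that of *Ctss* without the filter on low counts (edgeR adjusted p = 0.416).

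Among inflammatory genes, calls favoured the *Cd209a* cells, as did those over all 1325 genes tested (116, or 8.75%, lower and 70, or 5.28%, higher in cDC1-like cells). The lists overlap. *Cxcl10* counts as both an interferon-induced and a chemokine gene, and *Clec10a* and *Cd14* were already counted as cDC2 and monocyte genes. Of 16 interferon-induced genes, 8 were tested and 3 were lower in cDC1-like cells, namely *Cxcl10*, *Gbp2* (not without Ang2 Ab), and *Iigp1* (not without the filter) (median of the list −1.48). *Cxcl10*, which encodes a chemokine for activated T cells, was at 1393, 1382, 823, and 0 CPM in *Cd209a* cells and 4.28, 51.4, 26.4, and 0 CPM in cDC1-like cells (edgeR adjusted p = 7.52e-05), with both *EC-Ang2* sums at 0. *Isg15*, the most abundant of the list over all members, gave values that overlapped between the subsets (−0.78, edgeR adjusted p = 0.272). Of 15 chemokine genes, 7 were tested and *Ccl9*, *Cxcl10*, and *Ccl6* were lower in cDC1-like cells, and of 15 cytokine genes 3 were tested and *Tgfb1* and *Il1rn* were lower (under 7 of 12 and 6 of 8 alternatives, the former lost without mIgG1, Ang2 Ab, or Ctrl). Among 16 growth factor receptor and transcription factor genes, 10 were tested, with *Id2*, *Irf8*, and *Batf3* higher and *Cebpb* and *Csf1r* lower in cDC1-like cells. Of 16 lectin and Toll-like receptor genes, 4 were tested and *Clec10a*, *Cd14*, and *Tlr2*, the receptor for bacterial lipopeptides, were lower.

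The non-mature cDCs were then compared with the 185 mature dendritic cells of the same libraries, again over 4 sums of each kind. Of 3750 genes tested, 551 (14.7%) were higher and 628 (16.7%) lower in the non-mature cells (edgeR quasi-likelihood test, Benjamini-Hochberg adjusted p under 0.05), and the median log2 fold change over all genes was 0.0078. Without scaling beyond library size, the counts were 703 and 560 and the median was 0.12. All 13 genes of the mature dendritic cell list (maturation genes other than those of the rule) were lower in the non-mature cells, with a median of −3.79. The sets were split by *Fscn1*, *Ccr7*, and *Cacnb3*, so that part of this difference follows from the choice of cells. The same can hold for the costimulation and cytokine genes below. *Ccl5*, a chemokine gene, was at 93.1, 93.5, 5.37, and 24.0 CPM in non-mature and 4654, 5123, 3285, and 4207 CPM in mature cells (−6.33 ± 0.31, edgeR adjusted p = 1.19e-08). *Ccl22*, whose product attracts CCR4-bearing T cells, was at 0, 70.1, 42.9, and 0 CPM against 1939, 3328, 3614, and 3371 CPM (−6.72 ± 0.39, edgeR adjusted p = 6.16e-08). *Il12b*, which encodes a subunit of IL-12 and IL-23, gave 0 UMIs in all 90 non-mature cells and 275 in mature cells, at least 58.6-fold lower.

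*Ccl17*, whose product binds the same receptor as CCL22, differed less, at 555, 2212, 816, and 877 CPM against 2611, 7593, 7727, and 6586 CPM (−2.63 ± 0.21, edgeR adjusted p = 1.33e-06). In the Ang2 Ab library, 363 of the 568 UMIs of *Ccl17* in non-mature cells came from 1 cell, and in Ctrl 143 of 152 did. Of 10 costimulation genes, 9 were tested and 8 were lower in non-mature cells, among them *Cd40* (−2.86), *Cd274*, which encodes the inhibitory ligand PD-L1 (−2.51), and *Cd86* (−1.02). Some genes are counted in the mature dendritic cell list as well, namely *Cd40*, *Cd80*, and *Cd86* here and *Il12b* among the cytokine genes. Of 15 cytokine genes, 8 were tested and 7 were lower, with *Il1b* at 1221, 1383, 1557, and 998 CPM against 2036, 1575, 3043, and 3368 CPM. Of 16 interferon-induced genes, all were tested and 9 were lower, and none was higher. Of these calls, those of *Igtp*, *Rsad2*, and *Usp18* were lost without mIgG1 and without Ctrl, and that of *Ifit1* without the library block (edgeR adjusted p = 0.0611). That of *Igtp* was also lost without the cells with plasmacytoid genes (edgeR adjusted p = 0.05002). *Tnfrsf9*, a costimulatory receptor gene outside the lists, gave 0 against 224 UMIs (at least 47.8-fold lower).

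In the other direction stood the cDC1 genes, of which 11 were tested, 9 were higher in non-mature cells (*Snx22* not without mIgG1), and *Irf8* was lower (median 3.09). The rule required lineage UMIs, *Xcr1* and *Clec9a* among them, of the non-mature cells and not of the mature ones, so that part of this difference follows from the choice of cells. The cDC2 genes did not share this direction, with *Clec10a* higher and *Tmem176a*, *Tmem176b*, *S100a4*, and *Sirpa* lower of 9 tested (median −1.11). The calls of *Clec10a* and *S100a4* held under 7 and 8 of 11 alternatives and that of *Sirpa* under 2 of 10. All 3 were lost without mIgG1 and without Ang2 Ab. Without the cells with plasmacytoid genes, the call of *Sirpa* was lost as well (edgeR adjusted p = 0.0510). *Ppt1* was at 755, 596, 225, and 925 CPM against 73.8, 39.3, 20.1, and 65.5 CPM (3.55 ± 0.22, edgeR adjusted p = 7.95e-08), *Naaa* at 1213, 950.3, 413, and 901 CPM against 62.2, 81.0, 88.4, and 71.7 CPM (3.34 ± 0.27, edgeR adjusted p = 1.33e-06), and neither overlapped. *Cadm1*, an adhesion molecule of cDC1, gave 51 UMIs against 1, a pooled ratio of 79.7-fold (95% interval 13.7 to 3209). *Irf8* was somewhat lower in all 4 libraries, at 906, 1087, 752, and 817 CPM against 1099, 1339, 1138, and 1163 CPM (−0.52 ± 0.15, edgeR adjusted p = 0.0161), although this call was lost without Ang2 Ab and without Ctrl. The class II pathway was divided. *H2-DMb1* and *H2-DMa*, which edit the peptides bound to class II, and *H2-Oa*, which restrains that editing, were higher in non-mature cells, and *Lgmn*, *Ifi30*, and *H2-DMb2* were lower, of 10 tested, although the calls of *H2-Oa*, *Ifi30*, and *H2-DMb2* held under 8, 6, and 7 of 11 alternatives and were each lost without Ang2 Ab. *Cd74* did not pass the test (0.15 ± 0.11, edgeR adjusted p = 0.328).

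Of 13 chemokine receptor and integrin genes, 9 were tested, *Ccr2* and *Itgb7* were higher in non-mature cells, and *Itga4*, *Itgb1*, and *Selplg*, which encode adhesion molecules of leukocytes, were lower, *Selplg* not without mIgG1 or Ang2 Ab. *Ccr2* was at 93.1, 156, 258, and 72.1 CPM against 23.3, 13.9, 36.2, and 24.9 CPM (2.48 ± 0.32, edgeR adjusted p = 8e-05), and *Itgb7*, an integrin chain that pairs with CD103, at 236, 245, 505, and 252 CPM against 69.9, 60.1, 72.4, and 71.7 CPM (2.01 ± 0.24, edgeR adjusted p = 3.35e-05). Of 10 monocyte genes, 8 were tested and *Ccr2* and *Plac8* were higher. *Fabp5*, a fatty acid–binding protein gene, and *Cd63*, a lysosomal membrane protein gene, had log2 fold changes of −4.92 and −4.93. Of 8 plasmacytoid genes, 5 were tested and *Siglech*, *Ly6d*, and *Cox6a2* were higher. These are the genes that marked the 5 cells named above (*Ly6d* stood at 322, 0, 188, and 0 CPM in non-mature cells). The call of *Cox6a2* was lost without mIgG1, and those of *Ly6d* and *Cox6a2* with DESeq2 (DESeq2 adjusted p = 0.226 and 0.0703).

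Against the 2982 monocytes, defined by at least 6 UMIs of *Ly6c2* and *Plac8* and no more than 2 of the lineage genes, 673 of 8819 genes (7.63%) were higher and 1163 (13.2%) lower in non-mature cDCs (edgeR quasi-likelihood test, Benjamini-Hochberg adjusted p under 0.05). The balance of calls depended on scaling, with 36.7% of calls higher by TMM and 56.6% without it (1129 higher and 865 lower), and the median of all genes was −0.069 and 0.16. The cDC1 and pan-cDC lists stood above that median, between cells chosen for lineage UMIs and monocytes chosen for few of them, and the cDC2 list was mixed. Of 12 cDC1 genes tested, 11 were higher and none lower (median 2.73), and of 10 pan-cDC genes 9 were higher (*Bcl11a* not without Ctrl) and none lower (median 2.41). Of 10 cDC2 genes tested, *Clec10a*, *Tmem176b*, and *Mgl2* were higher and *Sirpa* and *Klf4* lower (median 0.26). The call of *Mgl2* was lost without Ang2 Ab (edgeR adjusted p = 0.904). That of *Tmem176b* was lost without the library block and in thinned cells (edgeR adjusted p = 0.0702 and 0.0560). *Cst3* was at 27332, 21774, 12599, and 21874 CPM in non-mature cDCs and 2855, 2826, 2319.8, and 1973 CPM in monocytes (2.80 ± 0.13, edgeR adjusted p = 4.89e-14). *Itgae* was at 283, 234, 42.9, and 264 CPM against 7.0, 5.53, 0, and 1.33 CPM (5.75 ± 0.33, edgeR adjusted p = 3.27e-12), and *Kmo* at 115, 81.8, 91.3, and 144 CPM against 14.8, 13.9, 15.8, and 6.11 CPM (2.80 ± 0.30, edgeR adjusted p = 7.15e-08). None of these overlapped.

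Of 10 class II pathway genes, 7 were higher (*Ciita* not without Ang2 Ab) and the proteases *Ctss* and *Lgmn* were lower (median 1.37). The rule required class II UMIs of the cDCs and not of the monocytes, so that part of this difference follows from the choice of cells. *Cd74* stood at 40394, 36383, 37683, and 33484 CPM against 17988, 13528, 14188, and 8171 CPM (1.28 ± 0.10, edgeR adjusted p = 3.48e-10). *H2-Oa* and *H2-Ob*, which together restrain peptide editing and are found in few myeloid cells, were higher by 2.92 and 3.40 on the log2 scale. By contrast, class I and cross-presentation genes gave 1 higher (*Psmb9*, not without mIgG1 or Ang2 Ab) and 6 lower of 15, among them *Psmb10* (not without Ang2 Ab or *EC-Ang2*) and *Tapbp* (not without *EC-Ang2*). *Plet1* outside the lists was higher by 4.76 ± 0.23 (edgeR adjusted p = 1.57e-13), and *Mycl*, a transcription factor gene of cDCs, gave 40 UMIs in 90 cDCs and 13 in 2982 monocytes. Of 12 cell cycle genes, 9 were tested and 8 were higher. The call was lost without mIgG1 for *Tpx2* and *Ube2c*, without Ang2 Ab for *Tpx2* and *Cdk1*, and with DESeq2 for *Top2a* and *Birc5*. Their UMIs came mostly from mIgG1 and Ang2 Ab cells, since all 12 genes together gave 138, 65, 4, and 0 UMIs.

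Monocyte and macrophage programs were lower. All 10 macrophage genes and all 8 monocyte genes tested were lower (*Ly6c2* and *Plac8*, which chose the monocytes, were left out), with medians of −4.34 and −3.46 (−3.06 with *Vcan* at its bound). The monocytes were chosen for monocyte transcripts and few lineage UMIs, so that part of the difference in monocyte genes follows from the choice of cells. The call of *Mertk*, a macrophage gene, was lost without mIgG1 and without Ang2 Ab (edgeR adjusted p = 0.0921 and 0.0648), and that of *Vcan* in thinned cells (0.0539). *Apoe*, the apolipoprotein E gene, was at 1049, 584, 113, and 144 CPM against 14654, 5387, 2693, and 4746 CPM (−4.17 ± 0.21, edgeR adjusted p = 1.65e-13). By the same estimate, free RNA could account for 46.9%, 45.4%, 37.0%, and 205% of the *Apoe* found in the non-mature cDCs, so that its level there is an upper limit. Of 15 chemokine genes, 11 were lower (*Cxcl9* not without mIgG1) and only *Ccl17* was higher. *Inhba*, an activin subunit gene, gave 1 UMI in cDCs and 11344 in monocytes, while *Cxcl3* and *Ccl24* gave 0 against 2544 and 3037 (at least 34.0-fold and at least 40.6-fold lower). Of 15 cytokine genes, 12 were tested and 9 were lower, *Il27* not without Ang2 Ab (median −2.70, or −1.72 with genes at 0 at their bound). In thinned cells the calls of *Il12a*, *Il6*, and *Il18* were lost (edgeR adjusted p = 0.324, 0.0649, and 0.378). Those of *Il6* and *Il18* were also lost without the library block (0.0544 and 0.0748). Of 10 genes of the APOE and TREM2 pathway, 9 were lower.

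**Figure D4:**
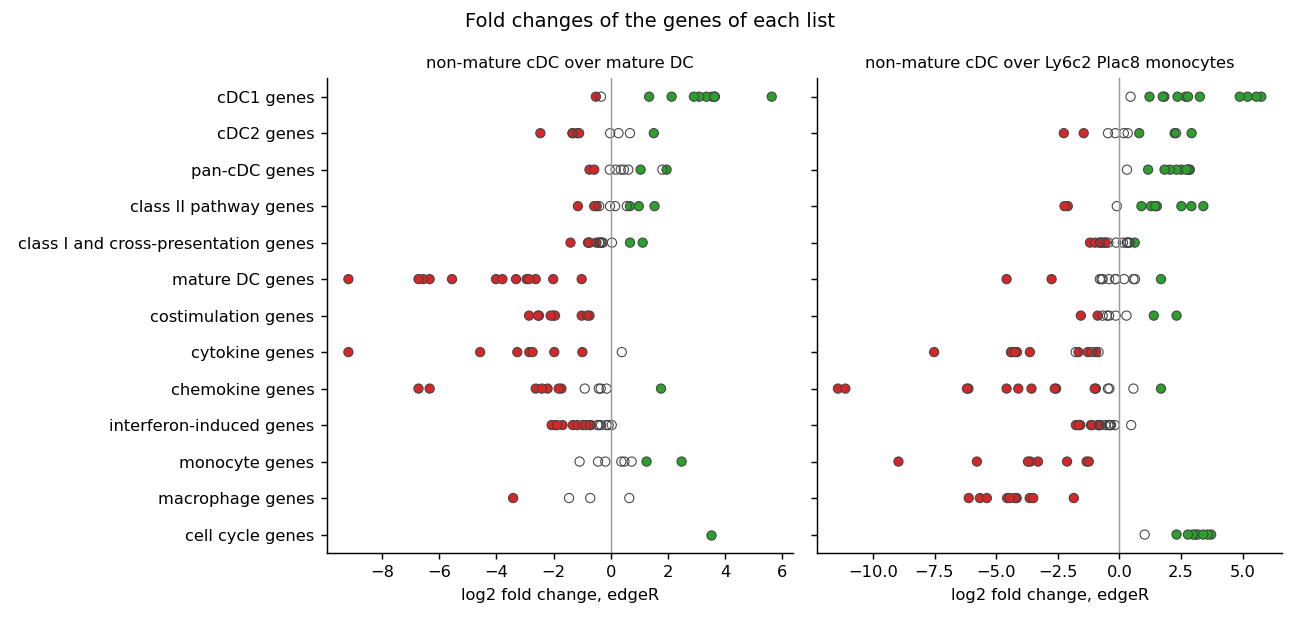
edgeR log2 fold changes (horizontal axes) of the tested genes of 13 lists, in non-mature cDCs over mature dendritic cells (left) and over monocytes (right). Each circle is a gene; green circles were higher and red circles lower at an adjusted p under 0.05, and open circles were not called. The mature dendritic cell genes lie wholly on the lower side at left, and the cDC1 and class II genes lie mostly on the higher side at right; values of genes at 0 in 1 group depend on the prior count.

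The question of what differed in non-mature cDCs with Ang2 blockade was addressed by comparing 31 mIgG1 and 30 Ang2 Ab cells, holding 279376 and 256768 UMIs. A gene was counted with 50 UMIs over both libraries and UMIs in 10% of the cells of either. Of 1401 such genes, 72 (5.14%) were at least 2-fold higher and 25 (1.78%) at least 2-fold lower after blockade. These are sizes in 1 library each and not tests, and exact Poisson intervals cover counting error only. Beside each stands the change in makeup, because the Ang2 Ab cells held fewer cDC1-like cells (16 of 30 against 25 of 31 with *Xcr1* or *Clec9a*) and more *Cd209a* cells (14 of 30 against 6 with *Cd209a*). The 25 include the 3 mIgG1 cells with plasmacytoid genes.

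The interferon-induced genes stood higher in the Ang2 Ab library. All 16 genes of the list had 10 or more UMIs, all 16 had log2 ratios above 0, and the median was 2.00, against −0.0085 over the 4758 genes with as many UMIs. Of the 8 that were counted, 6 were 2-fold higher. *Isg15*, a ubiquitin-like protein induced by interferon, gave 77 and 314 UMIs (276 and 1223 CPM), a log2 ratio of 2.15 [1.79 to 2.53] (95% interval in brackets, here and below), and was found in 19 of 31 and 25 of 30 cells. *Irf7*, the transcription factor that amplifies interferon production, gave 57 and 188 UMIs, in 22 and 25 cells (1.84 [1.41 to 2.3]). *Rsad2*, the antiviral enzyme viperin, gave 4 and 57 UMIs, in 4 and 8 cells (3.95 [2.52 to 5.88]), with 23 UMIs in the highest Ang2 Ab cell. *Gbp2*, an interferon-induced GTPase, gave 27 and 121 UMIs, in 10 and 18 cells (2.29 [1.67 to 2.94]).

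The difference was smaller within each subset but had the same direction. Among cDC1-like cells, 10 of 10 genes with enough UMIs were above 0 with a median of 0.81, and among *Cd209a* cells 12 of 15 were with a median of 1.17. *Isg15* had log2 ratios of 1.80 [1.32 to 2.31] and 1.25 [0.66 to 1.91] in these, and *Irf7* of 1.81 [1.27 to 2.37] and 0.79 [0.01 to 1.66]. Without the highest cell of each library for each gene, 13 of 13 genes were above 0 and the median was 2.25. Summed over the 16 interferon-induced genes, non-mature cDCs stood at 1335, 4576, 3876, and 2344 CPM. The mIgG1 cells were lowest and the Ang2 Ab cells highest, with Ctrl closer to Ang2 Ab. The cDC1-like cells stood at 994, 2360.0, 2874, and 2284 CPM and the *Cd209a* cells at 4839, 9319, 3717, and 1246 CPM. The order of mIgG1 and Ang2 Ab was not particular to these cells, since mature dendritic cells stood at 3722, 5408, 7373, and 3954 CPM, monocytes at 2214, 5033, 7559, and 3987 CPM, and all immune cells at 1637, 3166, 5334, and 3739.7 CPM.

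**Figure D5:**
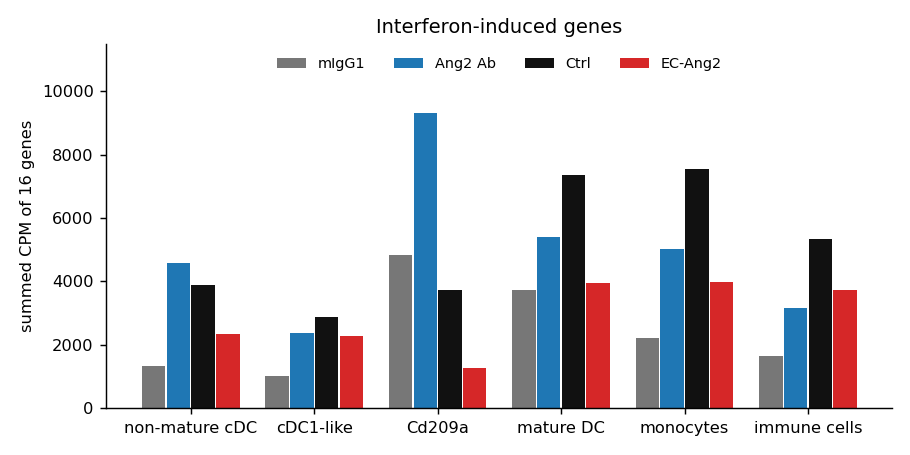
Summed CPM of the 16 interferon-induced genes (vertical axis, linear from 0) in 6 sets of cells, with 1 bar per library and no error bars because each bar is 1 library. Ang2 Ab is above mIgG1 in all 6 sets, and *EC-Ang2* is below Ctrl in all 6; the *EC-Ang2* bar for *Cd209a* is 1 cell.

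The promoters of 3 of the interferon-induced genes are shown, chosen after their values were seen, because they carry the same short motif. The motif searched, on both strands, was GAAA followed after any 2 bases by GAAA, the core of the element bound by interferon-activated transcription factors. It was present in 9 of 12 promoters of the list that were in the table (75.0%), against 943 of all 27025 promoters (3.49%), 0 of 9 for cDC1 genes, 0 of 9 for cDC2 genes, 1 of 8 for pan-cDC genes, and 0 of 9 for monocyte genes. Sequences are from RefSeq on GRCm38.p6, 250 bases before to 50 after the annotated start, read on the strand of the gene, with matches in capitals. *Gbp2* (chr3:142620413-142620712, plus strand) holds the motif on its reverse strand, with the first base 59 bases before the start. *Isg15* (chr4:156200769-156201068, minus strand) holds 3 overlapping matches that begin 78, 72, and 66 bases before it, and *Rsad2* (chr12:26456403-26456702, minus strand) holds it on the reverse strand 120 bases before it. A match describes the letters and was not tested as a site.
Gbp2: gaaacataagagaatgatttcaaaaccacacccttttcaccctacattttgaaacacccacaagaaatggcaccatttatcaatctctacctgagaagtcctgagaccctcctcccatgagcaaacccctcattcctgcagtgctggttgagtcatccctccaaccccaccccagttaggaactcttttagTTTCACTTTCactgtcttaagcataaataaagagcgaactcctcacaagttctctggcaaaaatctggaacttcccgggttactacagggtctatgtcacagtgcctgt
Isg15: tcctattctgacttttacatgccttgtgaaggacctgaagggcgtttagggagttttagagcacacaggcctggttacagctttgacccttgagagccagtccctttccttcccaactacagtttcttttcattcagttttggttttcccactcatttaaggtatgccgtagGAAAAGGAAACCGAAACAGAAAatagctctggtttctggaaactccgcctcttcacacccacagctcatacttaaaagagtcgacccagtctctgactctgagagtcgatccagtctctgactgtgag
Rsad2: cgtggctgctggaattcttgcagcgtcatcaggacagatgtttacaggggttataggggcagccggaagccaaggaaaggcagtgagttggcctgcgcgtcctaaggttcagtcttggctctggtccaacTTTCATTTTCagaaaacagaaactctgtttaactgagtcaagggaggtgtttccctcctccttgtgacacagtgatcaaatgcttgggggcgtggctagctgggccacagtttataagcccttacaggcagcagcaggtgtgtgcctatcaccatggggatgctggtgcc

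Other genes were higher after blockade. *Il1rn*, which encodes the interleukin-1 receptor antagonist, gave 6 and 63 UMIs, in 2 and 15 cells (3.51 [2.31 to 5.01]). In *Cd209a* cells alone it gave 6 and 44 UMIs (1.29 [0.05 to 2.81]), and in cDC1-like cells 0 and 19. *Serpina3g*, a protease inhibitor gene, gave 15 and 108 UMIs (2.97 [2.18 to 3.86]). *S100a8*, an abundant granulocyte transcript, gave 5 and 51 UMIs (3.47 [2.16 to 5.16]), of which 20 were in 1 Ang2 Ab cell. Of the 6 granulocyte genes, *S100a8* was the most abundant, *Ly6g* was at 0 in all libraries, and the list stood at 39.4, 327, 113, and 12.0 CPM. Free RNA was estimated at 69.8% of the *S100a8* UMIs in mIgG1 and 15.9% in Ang2 Ab. *Plaur*, the urokinase receptor gene, *Usp18*, a negative regulator of interferon signaling, and the interferon-inducible gene *Pyhin1* completed the 8 genes outside the rule with the largest ratios among the 1401 counted (2.23 [1.43 to 3.11], 2.23 [1.21 to 3.38], and 2.15 [1.22 to 3.20]). The chemokine genes had 10 of 11 ratios above 0 and a median of 1.29, but the median was −0.36 within *Cd209a* cells and −0.22 with cells thinned to 2000 UMIs.

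The lists of subset genes differed between the libraries as well. The cDC2 genes had 7 of 7 ratios above 0 (median 1.31) and the monocyte genes 8 of 8 (median 1.62), whereas the cDC1 genes had 2 of 12 above 0 (median −0.24). The cDC1 median ranged from −0.39 to 0.088 over its alternatives and so did not keep its sign. Over 11 alternatives each, the monocyte median ranged from −0.083 to 1.92 and the cDC2 median from 0.00090 to 1.42. The class II pathway genes lay near 0, with 3 of 10 above 0 and a median of −0.11, and none past 2-fold. Of the genes that were lower, *Cox6a2*, a muscle and plasmacytoid cell gene, went from 49 UMIs to 1 (−5.49 [−10.83 to −2.95]), of which 25 were in 1 mIgG1 cell, and it is 1 of the genes that marked the 3 mIgG1 cells with plasmacytoid genes. *Rrad*, a small GTPase gene, and *Spint2*, a protease inhibitor gene, followed at −1.70 [−2.57 to −0.90] and −1.52 [−2.43 to −0.69]. *Rogdi*, *Dnajc3*, and *Btla* stood between these and *Jun*, an early response gene, at −1.28 [−2.0 to −0.59]. Without the highest cell of each library, *Jun* stood at −0.80 [−1.68 to 0.040].

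With Ang2 overexpression in ECs, 21 Ctrl cells were compared with 8 *EC-Ang2* cells (186291 and 83203 UMIs), so that each ratio rests on very few cells. Of 749 genes counted, 26 (3.47%) were at least 2-fold higher and 46 (6.14%) at least 2-fold lower in *EC-Ang2*. The makeup again differed, with 4 of 21 and 5 of 8 cells with *Xcr1* or *Clec9a* and 16 of 21 and 1 of 8 with *Cd209a*. *Id2* gave 27 and 101 UMIs, in 7 and 7 cells, with 54 in 1 *EC-Ang2* cell (3.07 [2.44 to 3.74]), and within cDC1-like cells its log2 ratio was 1.70 [0.99 to 2.47]. *Serpina3g* gave 14 and 43 UMIs (2.78 [1.88 to 3.77]), and *Ppt1* and *Cd24a*, both cDC1 genes, were at 2.04 [1.48 to 2.62] and 1.86 [1.03 to 2.72]. *Serpina3g* was among the 8 largest ratios of the counted genes in both pairs.

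The genes with lower ratios included *Cd7*, *Ccl9*, *Ms4a6d*, *Il1r2*, and *Plaur*, all of which were called higher in *Cd209a* than in cDC1-like cells (edgeR adjusted p = 0.000319 for *Ms4a6d*, 0.0266 for *Il1r2*, and 0.00504 for *Plaur*). *Cd7* gave 69 and 1 UMIs (−4.95 [−10.27 to −2.42]), *Ccl9* 86 and 5 (−2.94 [−4.60 to −1.66]), and *Ms4a6d* 68 and 5 (−2.60 [−4.27 to −1.31]). *Il1r2*, the decoy receptor for interleukin-1, gave 184 and 15 UMIs, in 15 of 21 and 5 of 8 cells (−2.45 [−3.32 to −1.69]). *Plaur* gave 75 and 1 UMIs (−5.07 [−10.39 to −2.54]), and the stress genes *Hspa1a* and *Atf3* gave 77 and 3 and 49 and 2 UMIs. *Fos*, another early response gene that cell isolation can induce, gave 39 and 46 UMIs (1.40 [0.75 to 2.05]) and stood at 0.063 [−0.97 to 1.02] without the highest cell of each library. The part of cell isolation in these values was not tested. The interferon-induced genes had 1 of 11 ratios above 0 and a median of −0.81. The sign of that median was not kept under every alternative, with a range of −0.82 to 0.80, and the same was true of every list in this pair except the cytokine genes and the growth factor receptor and transcription factor genes. *Isg15* in cDC1-like cells, with 39 and 54 UMIs, was at −0.08 [−0.70 to 0.55].

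Transcripts of the angiopoietins and the Tie receptors were nearly lacking. *Angpt2*, which encodes Ang2, *Angpt1*, and *Tek*, which encodes the Tie2 receptor, gave 0 UMIs in all 90 non-mature cDCs, and *Tie1* gave 2, both in Ang2 Ab cells. *Itgb1*, the integrin β1 chain, gave 29, 27, 29, and 7 UMIs (104, 105, 156, and 84.1 CPM), and *Itga5*, which pairs with it, gave 1, 6, 3, and 3 UMIs. Counts this low allowed no comparison of *Itga5* between libraries.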

How the data were processed

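Single-cell libraries of sorted CD45+ and CD31+ SC cells were made from 1 sample in each of 4 conditions. The authors deposited unfiltered gene-by-barcode matrices of UMI counts, made by droplet 3′ sequencing with UMIs collapsed. The submitters' processing notes name Cell Ranger 2.1.1, Seurat 2.3.4, and mm10. All columns mapped to a sample.

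Barcodes with at least 2000 UMIs and under 10% mitochondrial UMIs were kept (6995, 7488, 6627, and 5415). The members, the gene lists, and the tests were chosen with earlier results of these data known. Scrublet scores (scanpy 1.11.5) marked 391, 449, 351, and 235 barcodes as doublets, 0 of them members, and none was removed. Shares have exact Clopper-Pearson intervals and ratios between 2 libraries exact conditional Poisson intervals (scipy 1.17.1), both of counting error only. Immune cells had *Ptprc* and no more than 2 EC-gene UMIs. Comparisons between cell sets used UMI counts summed per library and set, 8 sums with the library as a block, TMM scaling, and the quasi-likelihood test of edgeR 4.0.16 in R 4.3.3 with Benjamini-Hochberg adjustment over all genes tested, after the rule genes were left out. The p-values measure the spread between 4 libraries of different conditions. Scripts were tested on simulated data. Alternatives included DESeq2 1.42.0, no scaling, no block, other thresholds, thinning to 2000 UMIs, and leaving out each library.

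Named genes were members of the lists, the 10 genes per direction with the largest fitted fold change outside them (same direction in 4 libraries, at least 50 UMIs), and between conditions the 8 largest ratios per direction among genes counted. Positions are from GENCODE on GRCm38 and promoters from RefSeq. The number of mice per library is not given in the sources used here. Some genes are not reported here.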

Additional observations from a re-analysis of the deposited data

How the results depend on the processing

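Of 248 values recomputed under an alternative, 195 stayed within the counting error or within 1.5 times the main count, and 53 moved. These are shares and counts, which have no sign. Among signed values, the medians of 7 of 19 lists under blockade and of 14 of 16 under overexpression changed sign under an alternative, and no gene named as called between cell sets did. Of 48, 104, and 153 calls of list genes and leading genes between subsets, against mature cells, and against monocytes, 33, 75, and 107 held under every alternative that gave a value. The cause of each move was not tested unless the alternative itself used fewer cells or libraries. With a lineage-gene sum of at least 2, the share of immune cells was 2.20% in mIgG1, 2.33% in Ang2 Ab, and 1.01% in *EC-Ang2*, and with a sum of at least 5 it was 0.825%, 0.868%, 0.725%, and 0.160%. With the rule applied to cells thinned to 2000 UMIs it was 0.491%, 0.870%, 0.471%, and 0.0943%, of which 50%, 27.3%, 0%, and 0% were cDC1-like and 50%, 72.7%, 100%, and 100% were *Cd209a* cells.

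After blockade, 152 genes were higher and 105 lower by 1.5-fold. Counts at 2-fold were 29 and 8 in thinned cells, 29 and 14 within cDC1-like cells, and 27 and 5 within *Cd209a* cells. The number of genes that could be counted in each of these settings is not given here, for either pair. Fewer UMIs can leave fewer such genes, so these counts are not shares and do not show whether differences were lost. Without cycling cells 16 genes were lower after blockade, and 15 were when each gene lost its highest cell in each library, a choice made after seeing the data. With overexpression, 86 genes were higher and 109 lower by 1.5-fold, 7 and 27 at 2-fold in thinned cells, and 8 and 74 were lower within cDC1-like and *Cd209a* cells.

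Between cDC1-like and *Cd209a* cells, 74 genes were lower without the library block, and 19 were higher and 33 lower in thinned cells. Fewer UMIs can also leave fewer genes to test, and the number tested in thinned cells is not given, here or below. With each library left out in turn, 23 to 79 were higher and 42 to 147 lower (34 and 58 without mIgG1, 23 and 42 without Ang2 Ab). Against mature dendritic cells, DESeq2 called 268 genes higher, thinned cells gave 171 and 250, and leaving out a library gave 341 to 441 higher and 411 to 565 lower, with 341 and 411 without mIgG1 and 346 higher without Ang2 Ab. Against monocytes, 1129 were higher without scaling, DESeq2 called 771 lower, thinned cells gave 184 and 591, and leaving out a library gave 394 to 663 higher and 783 to 1076 lower, the lowest count of higher genes being that without Ang2 Ab.

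Depth limits the rare transcripts most, because the rule needs 3 UMIs of 5 sparse genes and favours deep cells. The 8 *EC-Ang2* cells, with 1 *Cd209a* cell, allow no firm statement about that library, and 1 library per condition leaves treatment, batch, and mouse inseparable.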
